A study of Mus musculus with 4 samples.

Results

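Elastin, the microfibril-associated proteins, fibrillin-2, emilin-1 and the fibulins build the elastic fibres of the mitral valve, and their transcripts are described here on 4 oligonucleotide arrays. The genes are Eln, Mfap2, Mfap4, Mfap5, Fbn2, Emilin1, Fbln1, Fbln2, Fbln5 and Efemp2, and every probe set annotated to exactly 1 of them was taken. That rule found 13 probe sets of 9 of the 10 genes, among 22690 probe sets on each array. Efemp2, which encodes fibulin-4, was not analysed here. Eln, Mfap5, Emilin1 and Fbln1 had 2 probe sets each, and the other 5 genes had 1.

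An elastic fibre has a core of cross-linked elastin laid down on a scaffold of microfibrils, and fibrillins are the main structural proteins of microfibrils. Microfibril-associated glycoproteins and fibulins sit at the surface of the scaffold or bind tropoelastin, the soluble precursor, and lysyl oxidases cross-link it into an insoluble polymer. In mitral leaflets elastic fibres lie mainly in the layer facing the atrium. Microfibrils also hold latent TGF-beta complexes in the matrix.

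The mice carried a fibrillin-1 allele with the C1039G change, a model of Marfan syndrome. The homozygous (Hom) group, with 2 mutant copies, held 1 array, the heterozygous (Het) group, with 1 mutant copy, held 2 arrays, and the wild-type (WT) group, with 0 mutant copies, held 1 array. The Het labels name the residue without its replacement, and the Het mice are treated here as carrying the Hom allele. Total RNA came from mitral valve in all groups, and the labels gave no age, sex, strain or pooling, so the spread between the Het arrays may be technical or biological. Fibrillin-1 itself was not analysed here. Values are deposited intensities on a linear scale, listed in the order Hom, Het replicate 1, Het replicate 2 and WT. Differences are on the log2 scale after values under an intensity of 18.9, the 25th percentile of all values, were raised to that floor. Hom and WT had no replicate, so precision is limited by how few arrays there were.

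All arrays carried a common trimmed mean of 150.1, but Het replicate 2 stood apart. Of the 11316 probe sets with a mean intensity of at least 62.6, 827 were 2-fold or more from WT on Het replicate 2, against 226 on Het replicate 1 and 140 on Hom, and the Het arrays were 2-fold apart at 1130. As a gauge of RNA integrity, the ratio of the 3' to the 5' Actb control was 3.04 on Het replicate 2 and 2.16 to 2.25 elsewhere. The same ratio for Gapdh was 3.84 on Hom, 3.19 and 4.65 on the Het arrays and 4.18 on WT, which set Het replicate 2 apart less clearly. Valve interstitial and fibroblast markers were measured for 10 of 10 genes, all above the floor on every array, with summed intensities of 54581, 55555, 36045 and 65194. Cardiomyocyte markers (11 of 11 genes, all above the floor) summed to 31576, 43209, 16966 and 33204, and macrophage markers (11 of 11, all above the floor) to 4334, 3787, 6454 and 4426. The labelled valve tissue thus carried its defining fibroblast transcripts together with those of heart muscle. Het arrays are given separately below for this reason.

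All 13 member probe sets passed the filter on mean intensity. In the comparison of Het with WT, which asks what differs with 1 mutant copy, elastin and Mfap4 were lower on both Het arrays. The fibulins Fbln1 and Fbln5, Fbn2 and 1 probe set of Mfap5 were lower by smaller amounts. The count was 8 of 13 member probe sets, of 6 genes, below WT on both Het arrays, against 28.6% of all probe sets tested. None was above WT on both, against 25.7%. By the size of 1.5-fold on both Het arrays, 3 member probe sets, both of Eln and that of Mfap4, lay below WT, against 1.88% of all probe sets.

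The median log2 difference of the members from WT was -0.30 on Het replicate 1 and -0.87 on Het replicate 2, where the medians of all probe sets tested were 0.01 and -0.07. For the mean of the Het arrays it was -0.45, and it was -0.46 after quantile normalization and -0.34 with median centring of each array. Without Het replicate 1 it was -0.87, and relative to the fibroblast markers described next it was 0.10. That last setting raised every probe set on a Het array by the same amount. The median of all probe sets was not taken in it, so 0.10 does not place the members against other probe sets. On Het replicate 1 alone 9 members were below WT, against 48.1% of all probe sets, and on Het replicate 2 alone 12 were, against 54.8%. In bulk tissue, fewer cells of a type and less RNA per cell cannot be told apart. The interstitial and fibroblast markers moved alongside, with medians of -0.22 on Het replicate 1 and -0.88 on Het replicate 2 and 9 of 10 below WT on each. Their part in the member result was not tested. Taken relative to that marker median on the same array, a setting chosen after seeing the data, 3 member probe sets were below WT on both Het arrays in place of 8. The share of all probe sets below WT was not counted in that setting, so the counts of 3 and 8 have no common background. The 3 were both probe sets of Eln and that of Mfap4.

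No member was called by limma's moderated test at an adjusted p of 0.05, nor was any of the 11316 probe sets (0% called). At an unadjusted 0.05, 128 probe sets passed. That is less than the share of 0.05 that would pass if no probe set differed. The counts at an unadjusted 0.05 given below for the other comparisons were under that share too. The only replication in the fit was the Het pair, whose spread was lent to the single Hom and WT arrays.

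**Figure D1:**
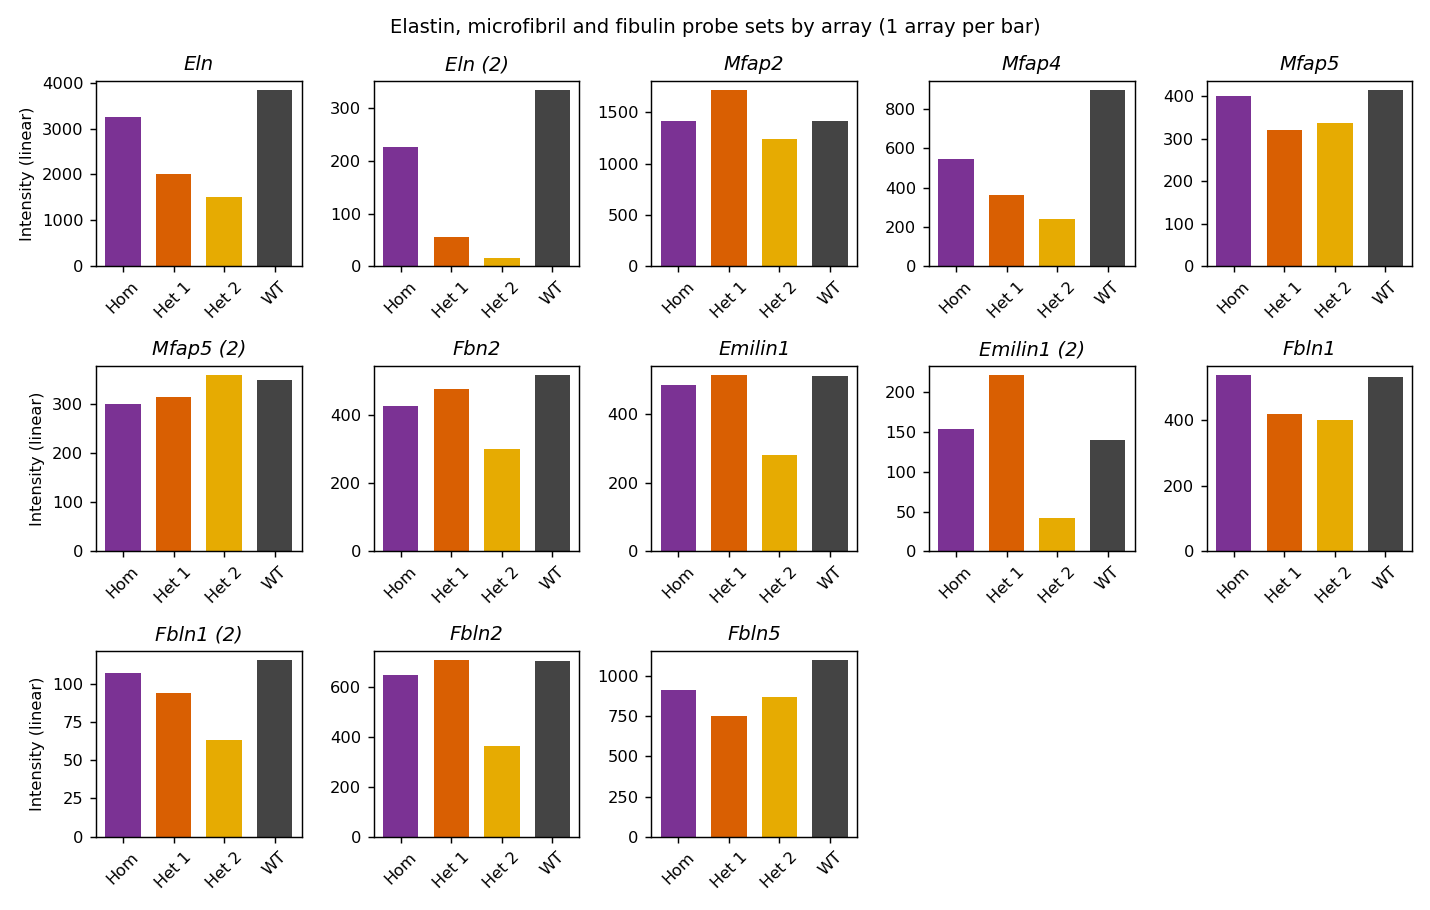
Deposited intensity (linear scale, from 0) of the 13 member probe sets on the Hom, Het replicate 1, Het replicate 2 and WT arrays, 1 bar per array and no error bars; (2) marks the dimmer probe set of a gene. Both Eln panels and the Mfap4 panel show both Het bars below the Hom bar and the WT bar, while Emilin1 and Fbln2 are low on Het replicate 2 alone.

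**Figure D2:**
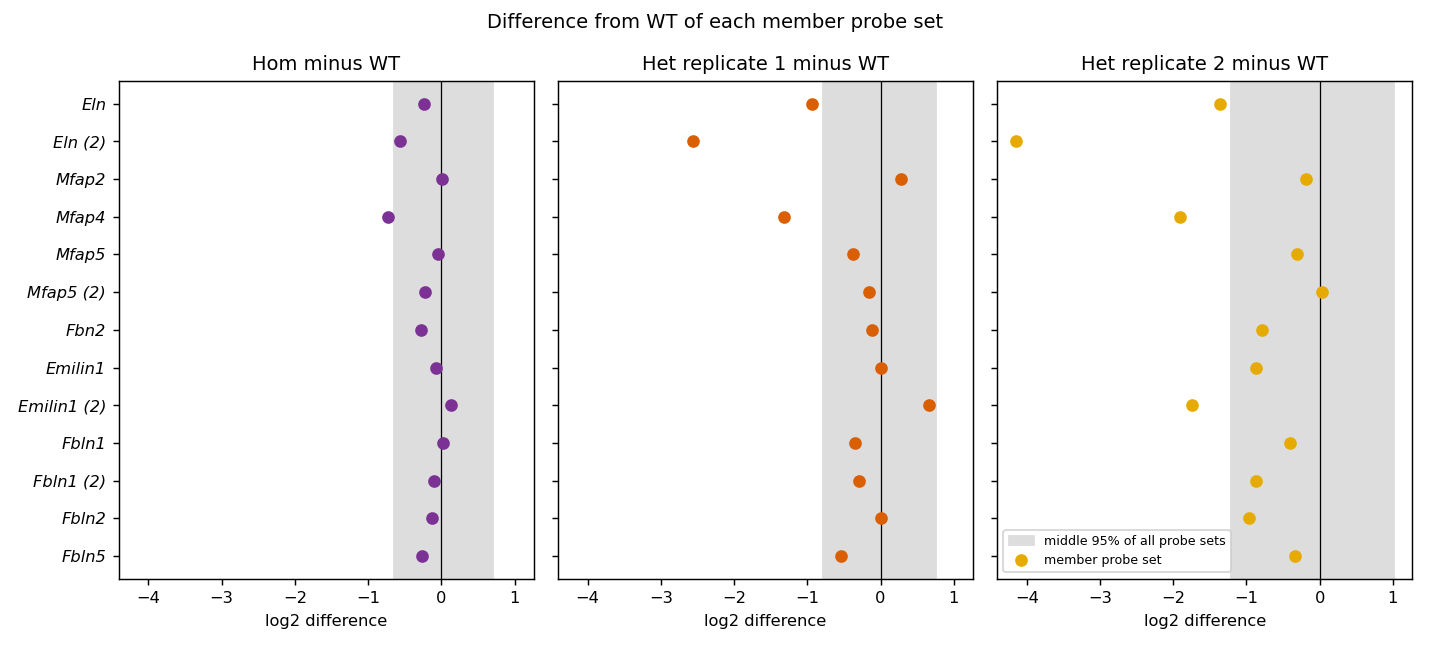
Log2 difference from WT of each member probe set on Hom, Het replicate 1 and Het replicate 2, with the middle 95% of all 11316 probe sets tested in grey. On both Het arrays the probe sets of Eln and Mfap4 lie left of the grey band, which begins at -0.78 for Het replicate 1 and at -1.21 for Het replicate 2.

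Elastin, encoded by Eln on chromosome 5 (134702595 to 134747368, GRCm38.p6), is the elastic core protein itself. Its brighter probe set, 1420855_at, read 3258 on Hom, 2018 and 1501 on the Het arrays and 3843 on WT. Both Het arrays were below both other arrays, and the Het arrays were closer to each other than either was to WT. The Het mean was 2.21-fold lower than WT (log2 difference -1.14, SE 0.48, 95% interval -2.17 to -0.11, limma adjusted p = 0.9999), and lower in 2 of 2 Het arrays. Unlike the adjusted p, the intervals here and below are per probe set and not adjusted for the number tested.

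The dimmer Eln probe set, 1420854_at, built on the same GenBank sequence, read 226.2 on Hom, 56.6 and 16.3 on the Het arrays and 335 on WT. The order of the arrays was the same as for the brighter probe set, with wider gaps. Het replicate 1 was 5.92-fold lower than WT, and Het replicate 2, under the floor, was at least 17.7-fold lower. Its Het minus WT difference of -3.36 (SE 0.60, 95% interval -4.66 to -2.05) was the lowest of all 11316 probe sets, and its p was the third smallest. The limma adjusted p was 0.374 for Het against WT. Over 6 alternatives it ranged between 0.00212 and 0.955, and it passed the threshold in 1 of them, moderation of the spread with a trend and robust estimation. In the others it was 0.124 or higher. The probe sets of Eln therefore gave different sizes, 2.21-fold and, with Het replicate 2 at the floor, 10.2-fold, for the Het mean.

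Taken relative to the interstitial and fibroblast marker median, the brighter Eln probe set was at -0.71 on Het replicate 1 and -0.48 on Het replicate 2, and the dimmer one at -2.34 and, with Het replicate 2 set to the floor, at -3.27. Smooth muscle markers, from cells that make elastin in vessels, were measured for 7 of 7 genes, with summed intensities of 4557, 4592, 6109 and 3910. Their median differences from WT were 0.14 on Het replicate 1, with 1 of 7 below WT, and 0.13 on Het replicate 2, with 2 of 7 below. Acta2 and Tagln made up most of the sums. Cnn1 was lower on Het replicate 1 (22 against 54.2 on WT), and Smtn (60.8 against 112.2) and Des (63 against 152.4) were lower on Het replicate 2. Their part in the Eln values was not tested. Myh11, the smooth muscle myosin, stayed below or at the floor, at 2.8, 18.9, 8 and 2.5.

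Among the microfibril-associated proteins, Mfap4 stood apart from Mfap2 and Mfap5. Mfap4, a fibrinogen-domain glycoprotein found on elastic fibres, is encoded on chromosome 11 (61485431 to 61488708). Its probe set, 1424010_at, read 543.3 on Hom, 361.1 and 240.1 on the Het arrays and 897.3 on WT, so all 3 mutant arrays were below WT and both Het arrays were below Hom. The Het mean was 3.05-fold lower than WT (log2 difference -1.61, SE 0.49, 95% interval -2.66 to -0.56, limma adjusted p = 0.9999), at percentile 0.106 of all probe sets. Relative to the fibroblast marker median it was still at -1.09 on Het replicate 1, -1.02 on Het replicate 2 and -0.44 on Hom.

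Mfap2, on chromosome 4 (141010424 to 141015976), encodes MAGP-1, a small glycoprotein that binds fibrillin. It read 1418 on Hom, 1717 and 1234 on the Het arrays and 1409 on WT. Het replicate 1 was above WT and Het replicate 2 below it, so the groups overlapped. The 95% interval of the Het minus WT difference was wide, from -0.99 to 1.08, and does not establish an equal level.

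Mfap5, on chromosome 6 (122513584 to 122529290), encodes MAGP-2, the paralog of MAGP-1. Its probe set 1449082_at read 400.2 on Hom, 319 and 335.6 on the Het arrays and 414.2 on WT, with both Het arrays lower. Its probe set 1418454_at read 299.6 on Hom, 315 and 359.7 on the Het arrays and 350.4 on WT, with Hom lowest and the Het arrays on either side of WT. The probe sets thus disagreed on the place of the Het arrays, and all 4 values of each lay within a narrow range. The Het minus WT difference of 1418454_at, -0.06, turned to 0.05 with median centring of each array.

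Fbn2, on chromosome 18 (58008623 to 58210572), encodes fibrillin-2, the fibrillin most abundant in embryonic microfibrils. It read 426.3 on Hom, 475.7 and 298.9 on the Het arrays and 516.7 on WT. All 3 mutant arrays were below WT, with Het replicate 1 the nearest to it. Its Het minus WT difference was -0.45 (SE 0.49, limma adjusted p = 0.9999).

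Emilin1 and Fbln2 shared another pattern, near or above WT on Het replicate 1 and low on Het replicate 2. Emilin1, on chromosome 5 (30913387 to 30921279), encodes a glycoprotein of the interface between elastin and microfibrils that in mice restrains the processing of pro-TGF-beta. Its probe set 1416414_at read 486.9 on Hom, 515.2 and 280.3 on the Het arrays and 511.1 on WT. The dimmer probe set, 1431834_a_at, read 153.6 on Hom, 222 and 42.1 on the Het arrays and 140.8 on WT, which put Het replicate 1 highest and Het replicate 2 lowest of the 4 arrays. Its gap between the Het arrays, -2.40 log2 units for Het replicate 2 minus Het replicate 1, was at percentile 0.124 of all probe sets.

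Fbln2, on chromosome 6 (91212460 to 91272540), encodes fibulin-2, which binds fibrillin and other matrix proteins. It read 649 on Hom, 708.8 and 363.2 on the Het arrays and 707.2 on WT. Only Het replicate 2 departed, by 1.95-fold below WT. The intervals of the Het minus WT differences all included 0 for Emilin1 (-1.53 to 0.68 and -2.16 to 1.07) and Fbln2 (-1.61 to 0.65).

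These genes were the members with a single annotated start in the RefSeq promoter table, and for that reason the sequence before that start is shown. Of the 9 genes measured, 5 matched the table, and Eln, Mfap4, Mfap5 and Fbn2 were not among them. The 250 bases before each start follow, 5′ to 3′ on the + strand of RefSeq's GRCm38.p6, for Emilin1 at chr5:30913536-30913785 and for Fbln2 at chr6:91212514-91212763. Both windows lie within the annotated gene spans given above, because the table's start is 399 bases downstream of the 5′ end of the span for Emilin1 and 304 bases downstream for Fbln2. Capitals mark matches to the SMAD core motif CAGAC or the GC box GGGCGG on either strand, and no match overlapped another.
Emilin1: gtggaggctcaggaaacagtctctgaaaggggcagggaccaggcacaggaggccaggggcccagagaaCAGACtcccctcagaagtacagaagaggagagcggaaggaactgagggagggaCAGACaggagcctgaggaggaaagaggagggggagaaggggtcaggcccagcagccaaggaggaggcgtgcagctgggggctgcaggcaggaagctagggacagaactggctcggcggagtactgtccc
Fbln2: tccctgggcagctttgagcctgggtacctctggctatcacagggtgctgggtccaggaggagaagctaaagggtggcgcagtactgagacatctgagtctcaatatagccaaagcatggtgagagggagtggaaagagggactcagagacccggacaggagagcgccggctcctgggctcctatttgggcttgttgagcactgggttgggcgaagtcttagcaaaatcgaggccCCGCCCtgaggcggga
Emilin1 held 2 CAGAC matches, beginning 182 and 129 bases before the start, and no GC box. Fbln2 held 1 GC box, on the - strand, beginning 16 bases before the start, and no CAGAC. Among the 32851 windows of the table, 42.2% held CAGAC and 32.7% held GGGCGG, so neither match sets these windows apart. Neither window held CCAAT (33.8% of windows), TATAAA (12.4%) or the AP-1 motif TGANTCA (6.75%). A match is a description of letters and not a bound site.

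Fbln1 and Fbln5 were lower on both Het arrays by modest amounts. Fbln1, on chromosome 15 (85205949 to 85286294), encodes fibulin-1, a protein of elastic fibres and basement membranes. Its probe set 1451119_a_at read 536.1 on Hom, 416.3 and 400.8 on the Het arrays and 528.5 on WT, so the Het arrays lay together below Hom and WT. The dimmer probe set, 1422540_at, read 107.2 on Hom, 93.7 and 63 on the Het arrays and 115.4 on WT. Both Het arrays were again lowest, with WT above Hom here and Hom above WT for the brighter probe set. The Het minus WT differences were -0.37 (SE 0.46) and -0.59 (SE 0.48).

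Fbln5, on chromosome 12 (101746565 to 101819119), encodes fibulin-5, which binds tropoelastin and integrins and is required for normal elastic fibres in mice. It read 913.5 on Hom, 754.6 and 872.7 on the Het arrays and 1101 on WT. All 3 mutant arrays were below WT, and here Het replicate 1 was the lower of the Het arrays. The Het minus WT difference was -0.44 (SE 0.47, 95% interval -1.45 to 0.57). Relative to the fibroblast marker median, Fbln1 and Fbln5 were below WT on Het replicate 1, at -0.12, -0.08 and -0.32, and above it on Het replicate 2, at 0.48, 0.01 and 0.55.

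The Het arrays differed from each other at most members. Het replicate 2 was lower than Het replicate 1 at 10 of 13 probe sets, against 55.4% of all probe sets, with a median of -0.57 against -0.08. Both probe sets of Mfap5 and that of Fbln5 ran the other way. By 1.5-fold, 8 members were below WT on Het replicate 2, against 16.2% of all probe sets, and 3 on Het replicate 1, against 5.74%.

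The comparison of Hom with WT asks what differs when both copies are mutant. With 1 array on each side, members lay near WT: Mfap4 was 1.65-fold lower and the other 12 probe sets were within 1.5-fold. The 95% intervals were wide, for example -1.43 to 0.95 for the brighter Eln probe set, and do not establish an equal level. The numbers were 10 of 13 below WT, against 48.2% of all probe sets, and 1 of 13 lower by 1.5-fold, against 3.3%. The median member was at -0.12, against 0.01 for all probe sets, and it was -0.12 after quantile normalization and -0.16 with median centring. The fibroblast markers were at -0.28, with 9 of 10 below WT, and their part was not tested. Relative to them the member median was 0.16 and 2 members, Mfap4 and the dimmer Eln probe set, were below WT. That setting raised all Hom probe sets alike, and no median or share of all probe sets was taken in it. After Mfap4 (log2 difference -0.72, SE 0.56), the lowest differences were those of the dimmer Eln probe set (-0.57), Fbn2 (-0.28) and Fbln5 (-0.27). No probe set was called by limma (0% of all), and 66 passed an unadjusted 0.05.

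The comparison of Hom with Het asks what differs between 2 mutant copies and 1. It shares its Het arrays with the comparison of Het with WT, so the same Het values enter both. Hom was above both Het arrays at 7 of 13 member probe sets, against 30% of all, and below both at 1, a probe set of Mfap5, against 24.2%. By 1.5-fold 3 members were above both, against 1.96% of all. They were the probe sets of Eln and Mfap4, the same as in the comparison of Het with WT, and are not a separate observation. The brighter Eln probe set was 1.87-fold higher in Hom (log2 difference 0.90, SE 0.48), Mfap4 1.85-fold (0.88, SE 0.49), and the dimmer Eln probe set 6.92-fold with Het replicate 2 at the floor. The last difference, 2.79 (SE 0.60, 95% interval 1.48 to 4.10, limma adjusted p = 0.711), was the highest of all 11316 probe sets. That rank too is a description only, for a probe set kept by the filter through its Hom and WT values. The member median was 0.19 against Het replicate 1 and 0.77 against Het replicate 2, and against the Het mean it was 0.36, with 0.37 after quantile normalization and 0.21 with median centring. The fibroblast markers were lower on Het replicate 2 than on Hom, and their part was not tested. Relative to them, the setting added after seeing the data, the member median was 0.09 and Hom was above both Het arrays at 4 members in place of 7. All probe sets of an array were shifted alike in that setting, and their median and share were not taken. Without Het replicate 1 the member median was 0.77, against 0.08 for all probe sets. Hom was above the remaining Het array at 12 members, and the share of all probe sets was not counted. Again 0% of probe sets were called, with 104 at an unadjusted 0.05. For a trend with 0, 1 and 2 mutant copies limma called 0% of probe sets, members included, with 87 at an unadjusted 0.05.

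**Figure D3:**
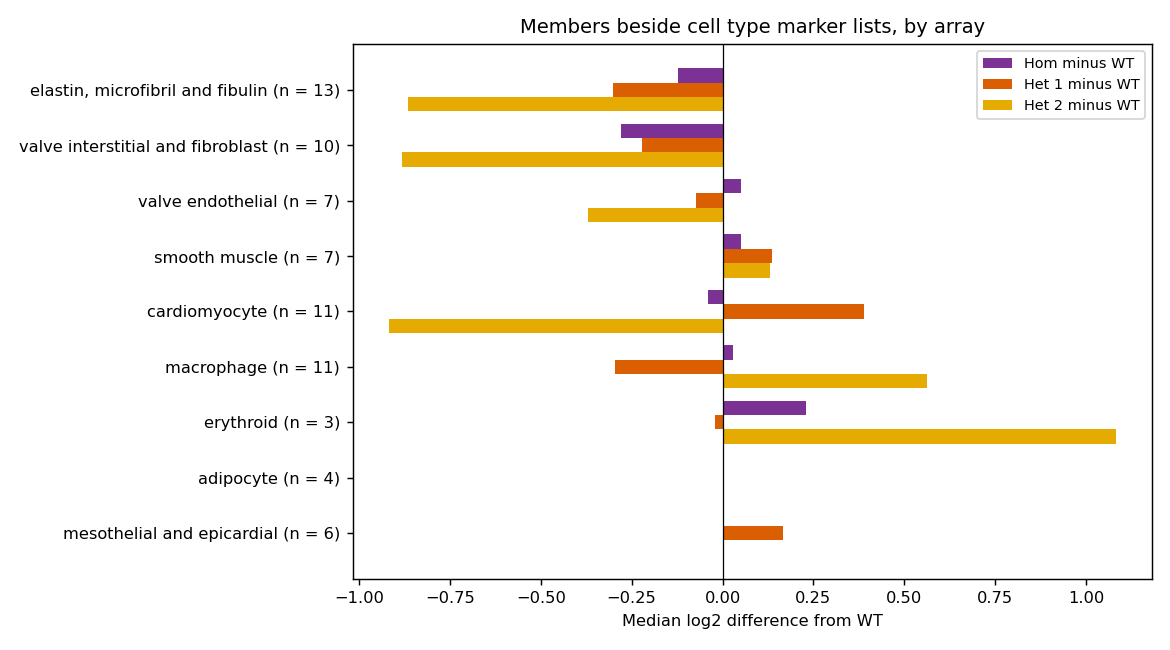
Median log2 difference from WT on Hom, Het replicate 1 and Het replicate 2 for the member probe sets and for 8 lists of cell type markers, with the number of probe sets in brackets; a missing bar is a median of 0 or close to it. On Het replicate 2 the member bar, at -0.87, is near the interstitial and fibroblast bar, at -0.88, and the cardiomyocyte bar, at -0.92. The smooth muscle bars are above 0 on all 3 mutant arrays.

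The remaining marker lists moved in different ways. Endothelial markers (7 of 7 genes, all above the floor) had medians of 0.05 on Hom, -0.07 on Het replicate 1 and -0.37 on Het replicate 2, with sums of 3499, 3651, 2591 and 3761. Cardiomyocyte medians were -0.04, 0.39 and -0.92, and macrophage medians 0.03, -0.29 and 0.56. Erythroid markers (3 of 6 genes) were at 0.23, -0.02 and 1.08, summing to 1390, 1110, 2658 and 1188, with 1 marker under the floor on WT. Of 4 adipocyte markers, Adipoq, Cidec and Lep were under the floor on every array, and of 6 mesothelial and epicardial markers Msln and Wt1 were. Adipocyte sums were 844, 764, 232 and 772, and mesothelial sums 249, 389, 246 and 231. Nearly all of each adipocyte sum was the single gene Fabp4, at 830.2, 743.5, 221.8 and 743.8. The median adipocyte difference from WT was 0 on all mutant arrays. The part of these differences in the member results was not tested.

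Other genes of elastic fibre assembly were read from lists chosen with earlier results known, each gene by its brightest probe set kept, and limma called none of them in any comparison. Of 14 cross-linking and assembly genes, 5 were kept, and 4 of these were below WT on both Het arrays and 0 above, against 28.6% and 25.7% of all probe sets. Lox, the lysyl oxidase that cross-links elastin and collagen, read 538.7 on Hom, 317.1 and 354.7 on the Het arrays and 552.7 on WT. Both Het arrays were thus below Hom and WT, as they were for Eln. Prelp, a small leucine-rich proteoglycan, read 1009, 634.9, 529.2 and 820.7, with the Het arrays again lowest. Its probe set (suffix s) may cross-react with other transcripts. So may those of Acta2 above, Ltbp3 and Timp2 below (suffix s) and Itgb5 below (suffix x). Loxl1, the lysyl oxidase-like enzyme that acts on elastin, read 983.8, 785.7, 566.2 and 819.4, and was highest on Hom. Loxl3 was lower on all 3 mutant arrays, at 105.4, 95.5, 117.5 and 148.9, and Atp7a, the copper pump that supplies lysyl oxidases, at 185.1, 143.4, 295.3 and 219.5, was on either side of WT in Het.

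Of 16 microfibril-binding genes, 10 were kept, 6 of them below WT on both Het arrays and 1 above, against the same 28.6% and 25.7% of all probe sets. Ltbp4, a latent TGF-beta binding protein that also helps elastin deposition with fibulin-5, read 592.6 on Hom, 410.9 and 213.8 on the Het arrays and 641.3 on WT. Its Het minus WT difference was -1.11, the lowest of the list, with Hom close to WT. Adamtsl4, a microfibril-binding ADAMTS-like protein, followed at 249.2, 229.8, 143.3 and 283.3. Ltbp3 lay above WT on all 3 mutant arrays, at 1268, 1078, 1360 and 1052. Ltbp1 had Het arrays on either side of WT, at 103.4, 150.2, 97.8 and 119.8. For Hom minus WT the highest members were Adamts10 (0.41) and Ltbp3 (0.27), and the lowest Dcn, decorin (-0.27), and Ltbp1 (-0.21). Dcn is also a fibroblast marker above.

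**Figure D4:**
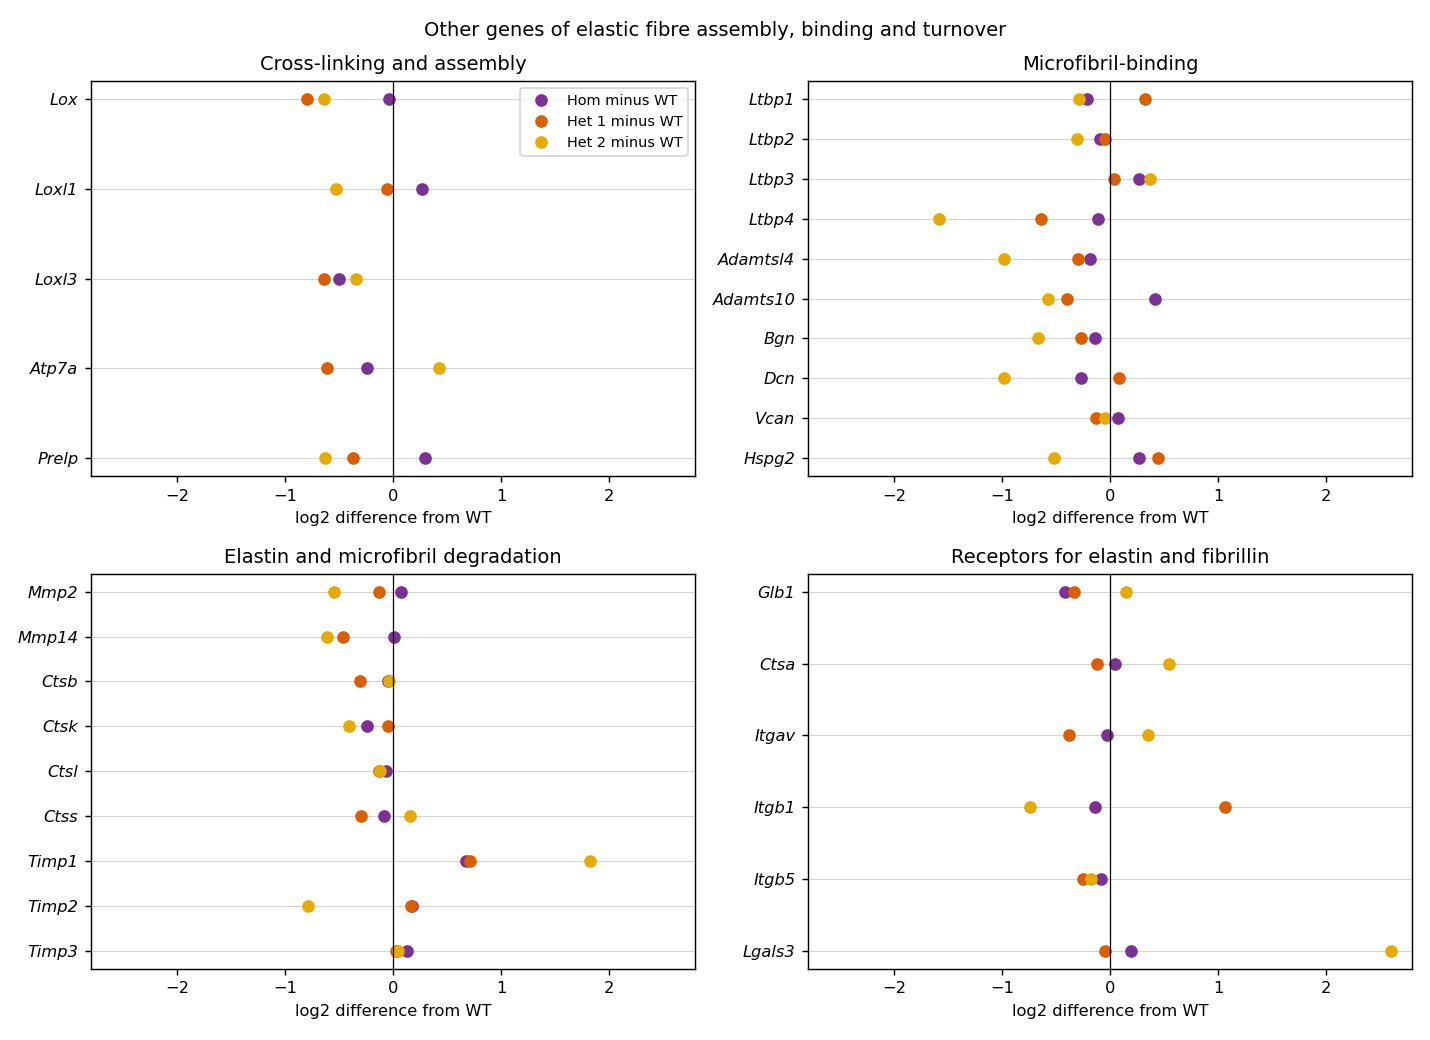
Log2 difference from WT on Hom, Het replicate 1 and Het replicate 2 for other genes of elastic fibre assembly, binding, degradation and reception, 1 point per array and gene. Both Het points of Lox and Ltbp4 lie below -0.6 while the Hom points lie near 0, and Timp1 lies above 0 on all 3 mutant arrays.

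Of 13 genes of elastin and microfibril degradation, 9 were kept, 5 of them below WT on both Het arrays and 2 above, where the shares of all probe sets were 28.6% and 25.7%. Timp1, an inhibitor of metalloproteases, read 1640 on Hom, 1688 and 3634 on the Het arrays and 1028 on WT, so all 3 mutant arrays were higher. Mmp14, a membrane-bound metalloprotease, read 1974, 1424, 1286 and 1964, and Mmp2, a gelatinase, 2682, 2328, 1750 and 2557, both lowest in Het. Timp3 stayed close to WT on every array, at 1572, 1465, 1487 and 1438. For Hom minus WT, Timp1 (0.67) and Timp2 (0.18) were highest, and Ctsk (-0.24) and Ctss (-0.08), cathepsins that cleave elastin, lowest.

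Of 11 receptor genes, 6 were kept, 1 below WT on both Het arrays and 0 above, no more than the 28.6% and 25.7% of all probe sets. Lgals3, galectin-3, read 97.1 on Hom, 81.9 and 514.1 on the Het arrays and 84.8 on WT, high on Het replicate 2 alone. That array also had the highest sum of macrophage markers, though 1 of 11, Adgre1, was below WT there (249.4 against 322.7). A link between Lgals3 and those markers was not tested. Ctsa, a protease of the elastin receptor complex, was also highest on Het replicate 2, at 429.5, 381.6, 606.9 and 416.8. Itgb5, an integrin subunit, was the member below WT on both Het arrays, at 539.6, 478.9, 506.3 and 571.5. Glb1, the gene of the elastin-binding splice form, read 129.1, 136.5, 190.7 and 172.7, and Itgb1, a subunit shared by many integrins, 409.5, 941.7, 270.3 and 451.7, with Het arrays on either side of WT in both. The list medians for the mean of Het minus WT were -0.49 for cross-linking, -0.32 for microfibril binding, -0.17 for degradation and 0.07 for receptors, against -0.03 for all probe sets.

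The pattern of the brighter Eln probe set was compared with 7305 other genes by Euclidean distance over its 3 log2 differences from WT. The 5 nearest were Vps18 (0.13), Eif4ebp2 (0.23), Tmem184b (0.23), Sfrp2 (0.23) and Nppc (0.24). Sfrp2, a secreted Wnt modulator, read 998.6 on Hom, 649.2 and 432.3 on the Het arrays and 1081 on WT. Nppc, the C-type natriuretic peptide, read 100.6 on Hom, 62.1 and 52.4 on the Het arrays and 133.5 on WT. With 4 arrays, a near match among 7305 genes is a description only.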

How the data were processed

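Total RNA from mouse mitral valve was measured on 4 single-colour arrays (Hom 1, Het 2, WT 1). The deposited file held linear intensities for 22690 probe sets. The authors' software is not given in the sources used here. All deposited arrays shared 1 trimmed mean, 150.1 after leaving out 2% at each end, and this scaling was kept. Median centring was not the main scaling, because on expressed probe sets it moved the median Het minus WT difference to 0.08.

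Gene symbols came from the platform annotation and were updated through their identifiers (20364 of 20393 with 1 gene matched; 691 had several genes and 1606 none). After leaving out 64 control probe sets, those with a mean of at least 62.6, the median over probe sets, were kept. Values were floored at 18.9, log2 transformed and fitted with limma 3.58.1 in R 4.3.3 (lmFit, eBayes, Benjamini-Hochberg over 11316 probe sets, threshold 0.05). The 3-group fit had the Het pair as its only replication. Its Het against WT difference was tested on simulated data with known changes. Figures used matplotlib 3.10.9.

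The members, lists and tests were chosen with earlier results of these data known. The text names every member. In each list it names genes called and the 2 highest and 2 lowest differences for Het and for Hom against WT, and it names the 5 genes nearest to Eln.

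Alternatives were quantile normalization, median centring, no floor, no filter or one at the 75th percentile, 1 probe set per gene, fits without 1 Het array, moderation with a trend and robust estimation, fits of 2 groups, a size of 1.5-fold and, added after seeing the data, differences relative to fibroblast markers.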

Additional observations from a re-analysis of the deposited data

How the results depend on the processing

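No paired analysis was possible because Hom and WT had 1 array each and shared no replicate numbers with Het in the labels. Of 278 member values under the alternatives that allow a test, which leaves out those without 1 Het array, 273 kept their direction and side of the threshold. Direction could change only under quantile normalization, median centring and, for the dimmer Eln probe set, no floor. The other settings left each difference as it was and could change only its p, so the total says little about direction. The dimmer Eln probe set passed for Het against WT with trend and robust moderation (difference -3.36, limma adjusted p = 0.00212). The other 4 changed sign near 0. With median centring Mfap5 1418454_at was at 0.052 for Het minus WT, and Mfap2 was at -0.032 and Fbln1 1451119_a_at at -0.020 for Hom minus WT. After quantile normalization Mfap2 was at 0.036 for Hom minus Het. With trend and robust moderation 3 probe sets were called for Het against WT and 1 for Hom against Het, and with the filter at the 75th percentile, which left 5646 probe sets to test, 1 was called for Het against WT. Other settings called 0.

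Leaving out a Het array in turn put the member median between -0.87 and -0.30 for Het minus WT, at -0.12 for Hom minus WT and between 0.19 and 0.77 for Hom minus Het. Of 52 member values that use the Het arrays, 10 changed sign when 1 was left out. Without Het replicate 2, Het minus WT turned to 0.012 and 0.66 for Emilin1 (1416414_at and 1431834_a_at) and 0.0033 for Fbln2, and Hom minus Het to -0.082 and -0.53 for Emilin1, -0.13 for Fbln2 and -0.16 for Fbn2. Without Het replicate 1, Mfap2 turned to -0.19 for Het minus WT and 0.20 for Hom minus Het, and Mfap5 1418454_at to 0.038 for Het minus WT. The member counts were 9 to 12 below WT in Het, 10 below WT in Hom and 7 to 12 with Hom above Het. For Hom above a single Het array the share of all probe sets was not counted. At a size of 1.5-fold the counts were 3, 1 and 3. Relative to fibroblast markers the medians were 0.10, 0.16 and 0.09 and the counts 3, 2 and 4. That list itself differed between arrays, and no median or share of all probe sets was taken in this setting. Median centring moved the median of all probe sets to 0.08 for Het minus WT and -0.11 for Hom minus Het, where the member medians were -0.34 and 0.21. Of the members, the dimmer Eln probe set alone had a value under the floor, on Het replicate 2.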
